A study of Mus musculus with 6 samples.

Results

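The Sprr2 genes are a run of closely related genes on mouse chromosome 3 that encode small proline-rich proteins of the epidermis and other stratified epithelia. They were taken by name from the deposited expression table, and all 10 named genes (Sprr2a1, Sprr2a2, Sprr2a3, Sprr2b, Sprr2d, Sprr2e, Sprr2f, Sprr2g, Sprr2h and Sprr2i) were present, each as 1 of 49377 genes with 1 row per symbol. The samples were epidermis separated from C57BL/6 mice at E19.5, late in gestation, with 3 libraries labelled control (261, 262 and 264) and 3 labelled Rictor -/- (263, 265 and 266). No treatment is named. The labels do not give the alleles of the controls, the promoter that drives the deletion, or whether each library came from a separate animal, so p-values measure the spread between these libraries, which may be technical. The comparison asks which transcripts change in epidermis when Rictor is missing. Levels are FPKM, fragment counts scaled to transcript length and to the depth of the library. Genes of different length can then be compared where the length used fits the transcript expressed. Values are given in the order 261, 262 and 264 for controls and 263, 265 and 266 for knockout-labelled libraries.

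Small proline-rich proteins are building blocks of the cornified envelope, the protein shell that replaces the plasma membrane of a keratinocyte as it becomes a dead cell of the skin surface. Their ends are rich in glutamine and lysine, which transglutaminases join to loricrin, involucrin and other envelope proteins, and the proline-rich repeats in between act as flexible bridges. The genes belong to the epidermal differentiation complex, which also holds the loricrin, involucrin, filaggrin and late cornified envelope genes. In the mouse, Sprr2 genes are known for high expression in the forestomach, oral epithelium and uterus, and for induction in inflamed or injured skin.

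Rictor, the subunit of mTOR complex 2 that the labels name as deleted, had control values of 5.63, 6.02 and 4.37 FPKM and knockout-labelled values of 6.83, 7.04 and 6.86 FPKM. It was thus not lower in the knockout-labelled libraries (limma log2 difference 0.33, adjusted p = 0.0694), and with array weights it was called higher (0.25, adjusted p = 0.0107), as it was with 0.10 as threshold. A whole-gene value can hold fragments from exons that a deletion leaves in place, so it does not check the labels, and every direction below is that of the libraries labelled knockout. Summed FPKM ran from 609375 to 672925 per library, highest in control 264. The tissue label fits the keratinocyte markers Krt5, Krt14, Krt1, Krt10, Lor and Krtdap, whose summed level was 40803 to 42633.5 FPKM in controls and 42468 to 43516 FPKM in knockout-labelled libraries.

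In all, 7 members rose in the knockout-labelled libraries: Sprr2b, Sprr2d, Sprr2e, Sprr2f, Sprr2g, Sprr2h and Sprr2i. Their mean FPKM was 4.70-fold (Sprr2d) to 54.0-fold (Sprr2i) the control mean. Sprr2a3 was tested and did not pass, and Sprr2a1 and Sprr2a2 were too low to be tested. Summed over all 10 genes, the family reached 69.5, 89.5 and 55.1 FPKM in controls, against 481, 266 and 495 FPKM in knockout-labelled libraries. The means were 71.4 ± 17.3 and 414 ± 128 FPKM (SD, n = 3 per group), a ratio of 5.80 that was not tested. The lowest knockout-labelled library stood above the highest control.

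The test was limma on log2(FPKM + 1) over the 13500 genes whose mean reached 1 FPKM in controls, in knockout-labelled libraries or in both. Across these genes 23.5% passed an adjusted p of 0.05, 7.91% higher and 15.6% lower. Of the members, 7 of 8 tested were higher and 0 lower (limma, also 0 lower at an unadjusted p under 0.05). Each of the 7 was called higher with a difference above 1 on the log2 scale. Of all tested genes, 1.01% were called higher with a difference of at least 1. In the same 7 the groups did not overlap, against 16.6% of all tested genes with every knockout-labelled library above every control. Sprr2e, Sprr2f, Sprr2g and Sprr2i had control means under 1 FPKM so only their knockout-labelled values brought them past the filter. They had to differ to be there, so the count describes the family and is not support for its rise. A filter on the mean over all 6 libraries, which ignores the labels, let in the same number of members, 8, and 7 of them were called higher. Sprr2e, Sprr2f, Sprr2g and Sprr2i reached that mean too through their knockout-labelled values, so this count is likewise a description and no support.

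**Figure D1:**
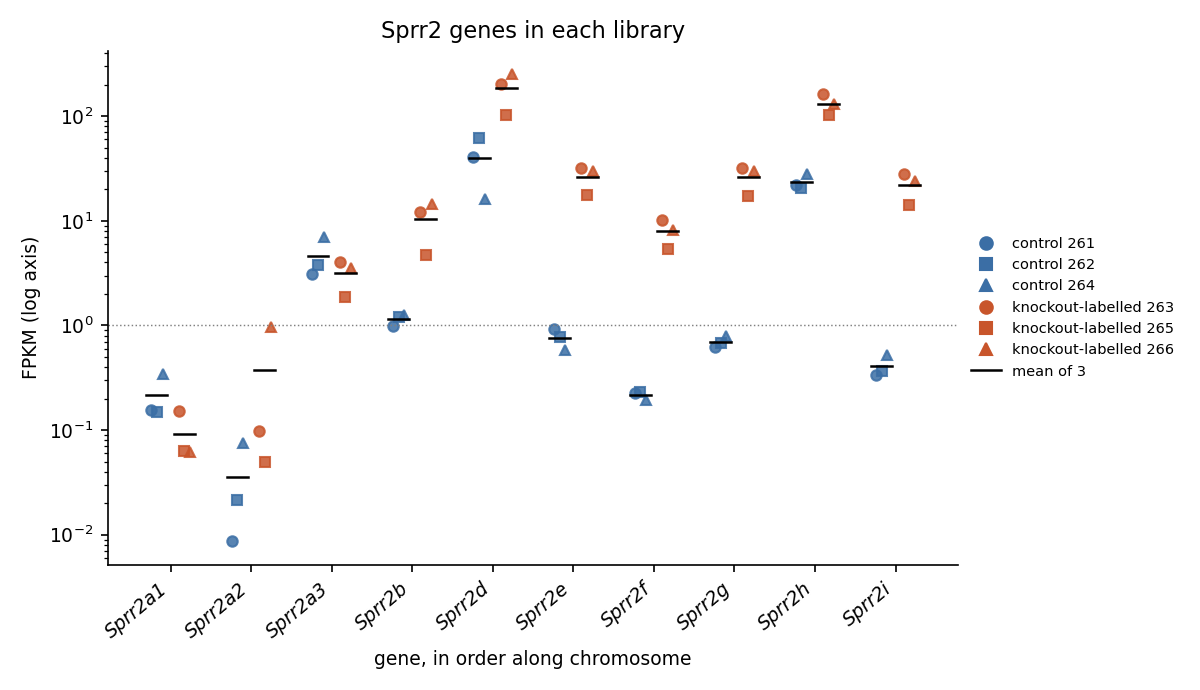
FPKM (log axis) of each Sprr2 gene in each library, genes in their order along the chromosome; blue symbols are the 3 controls, orange symbols the 3 knockout-labelled libraries, black bars the group means, and the dotted line marks 1 FPKM. In the 7 genes from Sprr2b to Sprr2i every orange point lies above every blue point, while in Sprr2a1, Sprr2a2 and Sprr2a3 the groups overlap.

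The genes lie on the + strand of GRCm38 chromosome 3 between 92215799 and 92409271, a span of 193 kb. In the GENCODE M21 annotation most transcripts have 2 exons with the whole coding part in exon 2. Annotated transcripts of Sprr2b to Sprr2i are short, with exonic lengths of 609 to 784 bases, whereas the models of Sprr2a1, Sprr2a2 and Sprr2a3 hold 3003, 2910 and 2883 bases. The coding part is 228 bases in Sprr2e, Sprr2f and Sprr2i and longest in Sprr2h, at 324 bases. Sprr2g is annotated as a polymorphic pseudogene, a gene whose reading frame is intact in some strains and broken in the reference.

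How far a value can be tied to 1 member depends on how much of its transcript is its own. Of the 50-base words in the annotated transcripts, 100% were found in no other gene's transcript for Sprr2g and Sprr2h, 99.3% for Sprr2f, 95.7% for Sprr2d, 89.8% for Sprr2e, 87.5% for Sprr2i and 85.9% for Sprr2b. The Sprr2a genes are near copies of each other: 3.72% of the words of Sprr2a1, 3.53% of those of Sprr2a2 and 38.9% of those of Sprr2a3 were unique. The coding parts of Sprr2a1 and Sprr2a2 are identical (100%), and Sprr2e and Sprr2i share 96.9% of theirs. The sources used here do not give the read length or how fragments shared by several genes were divided. Values of single Sprr2a genes are therefore uncertain, while those of Sprr2d, Sprr2f, Sprr2g and Sprr2h rest on sequence that is at least 95.7% their own at this word length.

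Sprr2d and Sprr2h carried most of the family's signal in every library. Sprr2d (ENSMUSG00000042212, chromosome 3, 92339140 to 92340873) had control values of 41.1, 61.5 and 16.1 FPKM and knockout-labelled values of 201, 104 and 253 FPKM. The groups did not overlap, but the spread was the widest of the called members in the controls, with 264 lowest. Group means were 39.5 ± 22.8 and 186 ± 75.6 FPKM (SD, n = 3 each). On the log2 scale Sprr2d rose by 2.30 ± 0.52 (SE; limma adjusted p = 0.0231). This is the call that 1 library could undo: without control 261 or without 263 or 266 the limma adjusted p was 0.0544, 0.0762 or 0.0732, and without control 264 the difference was 1.77 and passed (adjusted p = 0.0268).

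Sprr2h (ENSMUSG00000046259, chromosome 3, 92385685 to 92387324) gave 22.1, 20.8 and 28.3 FPKM in controls, against 162, 102 and 131 FPKM in knockout-labelled libraries. The lowest knockout-labelled value was 3.60 times the highest control, and here 264 was the highest control and not the lowest. Group means were 23.7 ± 3.99 and 131 ± 29.9 FPKM (SD, n = 3 each), and the rise was 2.41 ± 0.19 on the log2 scale (SE; limma adjusted p = 0.00113). Together Sprr2d and Sprr2h made up 90.9%, 91.9% and 80.4% of summed Sprr2 FPKM in controls, against 75.4%, 77.1% and 77.6% in knockout-labelled libraries.

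Sprr2e, Sprr2f, Sprr2g and Sprr2i, neighbours except for Sprr2h between the last 2 of them, were barely measured in controls and well above 1 FPKM in every knockout-labelled library. Sprr2e (ENSMUSG00000055030, 92352143 to 92353449) went from 0.934, 0.768 and 0.580 FPKM to 31.8, 17.5 and 29.7 FPKM. Sprr2g (ENSMUSG00000046203, 92373915 to 92375229) went from 0.617, 0.677 and 0.796 FPKM to 31.8, 17.3 and 29.975 FPKM. In knockout-labelled libraries the values of Sprr2e and Sprr2g were close to each other library by library, while in controls they ran in opposite order. Sprr2g shares no 50-base word with Sprr2e, and the part of shared fragments in these values was not tested. Sprr2i (ENSMUSG00000042157, 92407991 to 92409271) went from 0.334, 0.366 and 0.525 FPKM to 28.2, 14.1 and 23.8 FPKM, the largest ratio of means in the family. Sprr2f (ENSMUSG00000050635, 92365187 to 92366442) went from 0.227, 0.233 and 0.195 FPKM to 10.2, 5.32 and 8.24 FPKM, the lowest knockout-labelled mean of the 4.

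The rises were 3.92 ± 0.22 for Sprr2e, 3.97 ± 0.22 for Sprr2g, 3.98 ± 0.23 for Sprr2i and 2.83 ± 0.20 for Sprr2f on the log2(FPKM + 1) scale (± SE, n = 3 per group; limma adjusted p = 0.000463, 0.000463, 0.000502 and 0.000865). Sprr2i ranked 10 among the rises of all tested genes, Sprr2g 11 and Sprr2e 13. With control means under 1 FPKM, these genes and Sprr2f passed the filter through their knockout-labelled values alone. Their ranks and adjusted p are therefore descriptions and no support for the rise. Added to values this low, the pseudocount of 1 compresses the change, and ratios of mean FPKM were 34.6 for Sprr2e, 36.4 for Sprr2f, 37.8 for Sprr2g and 54.0 for Sprr2i. Those ratios rest on control values under 1 FPKM, whose counting error the table does not give. As a share of summed Sprr2 FPKM these genes held 3.04%, 2.28% and 3.803% in controls, against 21.2%, 20.4% and 18.6% in knockout-labelled libraries. The make-up of the family signal therefore differed between the labels as well as its size.

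Sprr2b (ENSMUSG00000050092, 92316620 to 92318085), the member next to the Sprr2a genes, had control values of 0.992, 1.21 and 1.27 FPKM and knockout-labelled values of 12.1, 4.68 and 14.6 FPKM. The value in 266 was 3.11 times that in 265, the widest spread among knockout-labelled libraries of any called member, yet 265 was still 3.69 times the highest control. The difference was 2.29 ± 0.35 (SE; limma adjusted p = 0.00736).

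**Figure D2:**
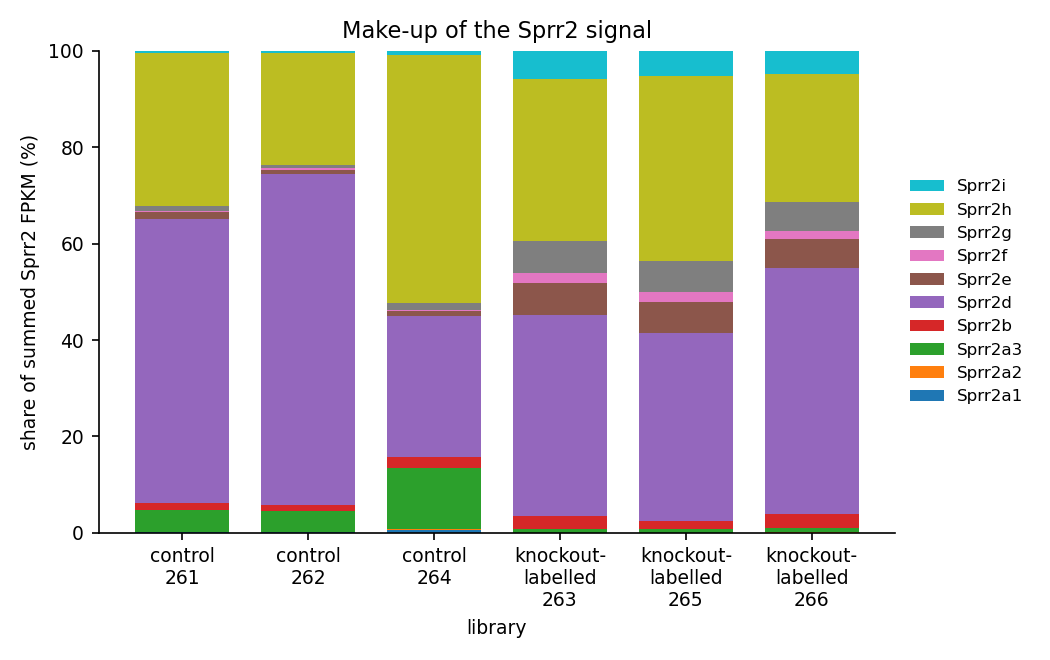
Stacked bars give each gene's share (%) of summed Sprr2 FPKM in each library, the 3 controls on the left and the 3 knockout-labelled libraries on the right. Sprr2d and Sprr2h fill most of every bar, and the segments of Sprr2e, Sprr2g and Sprr2i are wider in the knockout-labelled libraries.

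No rise was detected for the Sprr2a genes. Sprr2a3 (ENSMUSG00000074445, 92285417 to 92291405) had control values of 3.08, 3.799 and 6.998 FPKM and knockout-labelled values of 4.07, 1.88 and 3.58 FPKM. The groups overlapped, and the difference of -0.41 ± 0.30 did not pass (SE, n = 3 per group; limma adjusted p = 0.361). With array weights it was 0.01, so not even its sign held. Sprr2a1 (ENSMUSG00000078664, 92215799 to 92221911) was at most 0.340 FPKM in any library. Sprr2a2 (ENSMUSG00000068893), whose annotated span of 92215920 to 92256724 covers most of Sprr2a1, was under 0.1 FPKM in every library but 266, where it was listed at 0.977 FPKM. Summed over the 3 copies, the level was 3.24, 3.97 and 7.41 FPKM in controls, against 4.32, 1.996 and 4.62 FPKM in knockout-labelled libraries, again overlapping. Fitted without a filter on low values, Sprr2a1 and Sprr2a2 differed by -0.15 ± 0.07 and 0.35 ± 0.25 and did not pass (limma adjusted p = 0.270 and 0.488).

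The order of levels changed little at its top. In controls Sprr2d and Sprr2h came first with overlapping ranges, followed by Sprr2a3 and then Sprr2b, each apart from the next. Sprr2e and Sprr2g overlapped each other, Sprr2i stood below both, and Sprr2a1 overlapped Sprr2i and Sprr2f, with Sprr2a2 lowest. In knockout-labelled libraries Sprr2d and Sprr2h again overlapped at the top, Sprr2e, Sprr2g and Sprr2i overlapped one another, Sprr2b overlapped Sprr2i above it and Sprr2f below it, and Sprr2a3 was below all 7 genes that rose.

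The knockout-labelled libraries also differed among themselves in a way the members shared. Library 265 was the lowest of the 3 in all 7 called members, 263 was the highest in 5 and 266 in 2. Within the group the highest library was 1.59 times (Sprr2h) to 3.11 times (Sprr2b) the lowest. Without 265 the ratio of summed FPKM was 2.77 on the log2 scale against 2.54 with all libraries, and 7 members were called.

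Upstream of the genes that rose, the same motifs stood at nearly the same distances. RefSeq promoter windows on GRCm38.p6 were given for 9 of the 10 members, all but Sprr2g, and the 250 bases before the annotated start were searched on both strands. The windows of Sprr2b, Sprr2d, Sprr2e, Sprr2f, Sprr2h and Sprr2i each held the letters of an AP-1 site (TGANTCA) with its first base 193 to 198 bases before the start, of an octamer (ATGCAAAT, bound by POU factors, here on the reverse strand) at 108 to 112 bases and of a TATA box (TATAAA) at 29 bases. AP-1 is the dimer of FOS and JUN proteins, and AP-1 and octamer sites are known elements of SPRR promoters. None of these letters was in the RefSeq windows of Sprr2a1, Sprr2a2 and Sprr2a3, the members not called. The sequences of Sprr2d and Sprr2h, the most abundant members, of Sprr2e, which went from under 1 FPKM, and of Sprr2a3, which was tested and did not pass, are shown on the + strand from 5′ to 3′, ending 1 base before the start, with AP-1, octamer and TATA letters in capitals. They lie at chr3:92338890-92339139, chr3:92385435-92385684, chr3:92351893-92352142 and chr3:92285054-92285303.
Sprr2d: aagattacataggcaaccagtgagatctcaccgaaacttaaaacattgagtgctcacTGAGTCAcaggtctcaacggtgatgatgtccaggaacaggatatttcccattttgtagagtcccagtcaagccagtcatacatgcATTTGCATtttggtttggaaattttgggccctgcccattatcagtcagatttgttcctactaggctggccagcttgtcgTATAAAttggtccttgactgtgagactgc
Sprr2h: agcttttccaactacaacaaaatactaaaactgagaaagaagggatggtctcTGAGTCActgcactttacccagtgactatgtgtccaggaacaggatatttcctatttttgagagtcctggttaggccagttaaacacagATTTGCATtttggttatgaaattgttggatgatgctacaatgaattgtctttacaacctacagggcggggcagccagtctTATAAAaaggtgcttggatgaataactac
Sprr2e: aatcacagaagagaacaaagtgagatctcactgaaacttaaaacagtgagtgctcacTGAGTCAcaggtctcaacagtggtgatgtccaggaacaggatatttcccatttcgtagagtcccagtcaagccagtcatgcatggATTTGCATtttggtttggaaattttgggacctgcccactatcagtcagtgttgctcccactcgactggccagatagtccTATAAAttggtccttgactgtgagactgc
Sprr2a3: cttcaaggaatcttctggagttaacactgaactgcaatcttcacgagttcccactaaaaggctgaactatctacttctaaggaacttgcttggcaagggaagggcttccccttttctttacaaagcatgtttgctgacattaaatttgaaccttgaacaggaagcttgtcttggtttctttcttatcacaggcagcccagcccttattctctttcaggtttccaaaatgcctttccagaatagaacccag

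Of 32851 promoter windows of the same length in the table, 6.75% held the AP-1 letters, 1.60% the octamer and 12.4% the TATA box, and 14 windows (0.0426%) held all of them. Of those 14, 6 were the members above and 1 was Sprr2k, the family gene beyond the cluster's end, with AP-1 letters at 196 and 182 bases, the octamer at 109 and the TATA box at 29. The windows are copies of one another and not independent. Their pairwise identity was 88.9% for Sprr2d and Sprr2e and 63.6% for Sprr2e and Sprr2h, against 45.6% for Sprr2a1 and Sprr2d. Each of the other motifs searched was in fewer member windows than the AP-1, octamer and TATA letters. The ETS core (GGAAGT) and the KLF and Sp letters (CACCC) were in the window of Sprr2b alone, against 19.7% and 52.0% of all windows. The STAT letters (TTCNNNGAA) were in that of Sprr2a3 alone, against 7.02%, and the interferon element was in 0 of 9, against 2.98%. The NRF2 letters (TGANNNNGC) were in 4 of 9 windows, against 35.2% of all, and in Sprr2b they overlapped the octamer. A match in letters is not a bound site. The starts used lie 36, -100, -113 and 85 bases from the nearest GENCODE M21 transcript start for Sprr2a1, Sprr2a2, Sprr2a3 and Sprr2b, so what those windows hold rests on the RefSeq starts. GENCODE M21 also lists short transcripts of Sprr2a2 (722 bases, start 92215920) and Sprr2a3 (682 bases, start 92288566). No window was set at those starts, so the lack of these letters in the Sprr2a genes holds for the RefSeq windows alone.

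**Figure D3:**
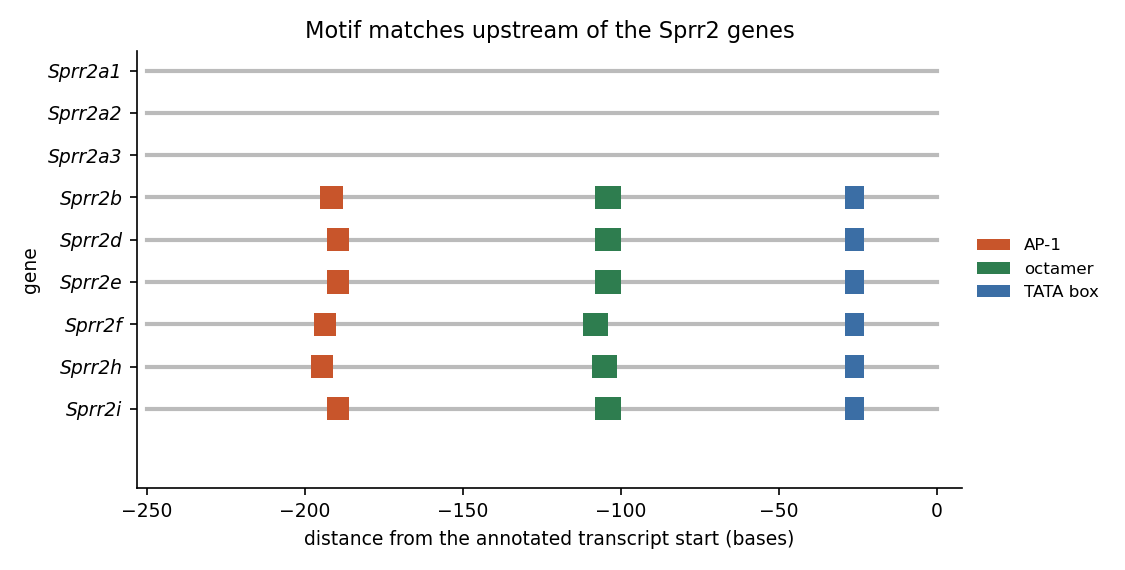
Matches to the AP-1, octamer and TATA box letters in the 250 bases upstream of 9 Sprr2 genes, by distance in bases from the annotated start; grey lines are the windows searched. The 6 genes from Sprr2b to Sprr2i that have a window hold all 3 motifs in the same order and at similar spacing. The 3 Sprr2a windows hold none.

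Of the transcription factors known to act at Sprr promoters or in late epidermal differentiation, 7 of 33 tested rose and 3 fell, where 7.91% of all tested genes rose and 15.6% fell. The median log2 difference was 0.15 against -0.06 over all tested genes. The 4 with the smallest p were Fosl1 (3.16 ± 0.15), which encodes the AP-1 subunit FRA1, Fosb (1.43 ± 0.21) and Junb (0.57 ± 0.10), also AP-1 subunits, and Cebpa (-0.36 ± 0.07), a factor of differentiating keratinocytes that fell (log2 ± SE; limma adjusted p = 0.000359, 0.00620, 0.0113 and 0.0159). The mean of Fosl1 was 1.995 FPKM in controls and 26.0 FPKM in knockout-labelled libraries. The call of Cebpa was lost without control 261, 263 or 266 (limma adjusted p = 0.0532, 0.0686 and 0.0587). With 0.10 as threshold 11 regulators were higher, without 263 the counts were 3 and 0, and without control 264 they were 7 and 5. The share of all tested genes called higher also moved, to 11.7%, 3.53% and 11.2% in these settings. In either direction it was 33.7%, 10.8% and 28.1%. Klf4 (0.20 ± 0.11) and Grhl3 (0.41 ± 0.14), named here after their values were seen as activators of envelope genes, did not pass. The RNA of the listed factors of the AP-1 and octamer motifs did not move together. Whether any of these factors acts on the Sprr2 genes here was not tested. Of the remaining FOS and JUN genes, also named after their values were seen, Jun (0.45 ± 0.09) and Fos (0.83 ± 0.23) rose. Jund (0.15 ± 0.10) and Fosl2 (-0.31 ± 0.25) did not pass. Neither did the POU genes Pou2f1 (0.10 ± 0.13) and Pou2f3 (-0.29 ± 0.09), named in the same way.

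The proteins that Sprr2 is joined to, and the enzymes that join them, moved less evenly. Of 24 tested partners of the cornified envelope 8 rose and 2 fell, where 7.91% of all tested genes rose and 15.6% fell, with a median of 0.12 on the log2 scale. Sprr1b (4.35 ± 0.19), another small proline-rich protein, and Rptn (3.09 ± 0.17), the envelope precursor repetin, rose most clearly, with S100a10 (1.02 ± 0.08), a calcium-binding protein found in envelopes. Of the transglutaminases Tgm1 rose (0.66 ± 0.08) while Tgm3 (-1.23 ± 0.12) and Tgm5 (-0.32 ± 0.07) fell. Involucrin (Ivl, 0.20 ± 0.14) and loricrin (Lor, -0.34 ± 0.24), abundant partners, did not pass. Tgm1, Tgm5, Ivl and Lor are named here after their values were seen. The number of partners that fell was 6 without control 264 and 1 without 261, 265 or 266. Of all tested genes 28.1% were called in either direction without control 264, and 14.2%, 12.9% and 11.4% without 261, 265 and 266.

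The genes on either side of the cluster differed in their direction. Before the cluster, Lor did not pass, Prr9 fell (-0.58 ± 0.12) and Lelp1 was listed at 0 in every library. Within it, the pseudogene Sprr2c-ps was at 0 and the 5 other rows were at most 0.0149 FPKM. After it, Sprr2j-ps (92418082 to 92419396), named as a pseudogene but annotated as protein coding, went from 0.194, 0.120 and 0.125 FPKM to 4.06, 3.98 and 4.76 FPKM. It passed through the knockout-labelled libraries alone (2.20 ± 0.10; limma adjusted p = 0.000385). Gm9774 (0.29 ± 0.09) did not pass, and Sprr2k, under 1 FPKM in every library, was 0.0456 to 0.131 FPKM in controls and 0.593 to 0.926 FPKM in knockout-labelled libraries, so its groups did not overlap. In a window of 1000 kb to either side of the cluster, chosen after values were seen, 14 of the other 44 tested genes (31.8%) rose and 6 fell, against 7.91% and 15.6% of all tested genes, with a median of -0.05. The genes that rose included Sprr1b, Sprr1a and all 6 Lce3 genes. Among them Sprr2j-ps, Lce3a, Lce3b and Lce3f had control means under 1 FPKM and passed the filter through their knockout-labelled values. The share that rose is therefore a description and no support. Between Sprr1a and Lce3a most tested genes, many of them of the Lce1 group, were not called, and none was called lower.

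**Figure D4:**
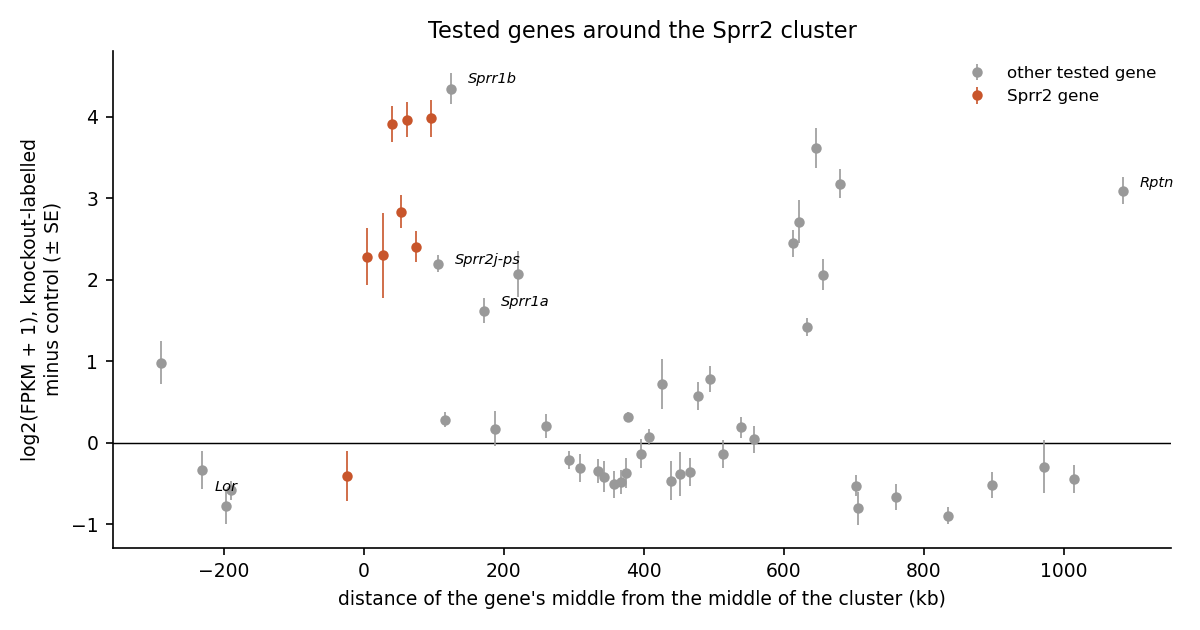
Log2(FPKM + 1) difference, knockout-labelled minus control, with SE, of each tested gene around the cluster, by distance (kb) of the gene's middle from the cluster's middle; orange points are Sprr2 genes and grey points the 44 others. Sprr2b to Sprr2i lie between 2.29 and 3.98, Sprr2a3 lies at -0.41, and a second set of high points is the Lce3 genes.

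The genes most like the family over the 6 libraries were sought by the root mean square difference between centred log2(FPKM + 1) profiles and the mean profile of the 8 tested members. They were Lce3b (0.06) and Lce3a (0.18), late cornified envelope genes of the same complex, S100a8 (0.23), which encodes a subunit of the antimicrobial protein calprotectin, Lce3f (0.33) and Defb4 (0.33), a beta defensin. The members themselves lay between 0.12 (Sprr2f) and 0.67 (Sprr2i) from their mean, and Sprr2a3 at 1.56. These genes were picked as the closest of all tested protein-coding genes, and Lce3a, Lce3b, Lce3f and Defb4, with control means under 1 FPKM, passed the filter through their knockout-labelled values.

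Markers of other cell types that epidermis can hold were read beside these values. The counts called in each list stand beside 7.91% of all tested genes higher and 15.6% lower, and no list was tested as a set. The immune list (3 of 4 tested members lower) summed to 24.5 to 33.9 FPKM in controls and 17.5 to 18.7 FPKM in knockout-labelled libraries, with Cd207 and Trdc at most 1 FPKM throughout. The melanocyte list (3 of 4 lower) summed to 336 to 416 and 252 to 283 FPKM. The list for oral and oesophageal epithelium, a site of high Sprr2 expression, summed to 6.23 to 9.53 FPKM in controls. It summed to 4.36 to 5.39 FPKM in knockout-labelled libraries, with Krt4 and Krt76 at most 1 FPKM. That sum was mostly Krt36, the 1 tested member, which fell (6.48 to 3.13 FPKM), so it is not read as a level of that tissue. Krt84, too low to be tested, was 0.170 to 0.322 FPKM in controls and 0.798 to 1.09 FPKM in knockout-labelled libraries. The groups overlapped for Krt4, Krt13 and Krt76. Dermal fibroblast markers (2 of 4 tested higher) summed to 114 to 142 and 124 to 159 FPKM, most of it Dcn, with Pdgfra and Lum at most 1 FPKM. The collagen genes Col1a1 (3.61 to 7.64 FPKM) and Col1a2 (6.49 to 10.1 FPKM) rose, and Col3a1 (7.03 to 13.9 FPKM) did not pass although its groups did not overlap. Of the remaining lists, all 4 endothelial markers were at most 1 FPKM. Periderm and simple epithelial keratins (1 of 4 higher) gave 16.5 to 18.0 and 14.8 to 16.0 FPKM, muscle markers (0 of 2) 3.54 to 7.39 and 3.75 to 14.8 FPKM, and erythroid genes (0 of 4) 105 to 168 and 55.6 to 120 FPKM. In the keratinocyte list 2 of 6 rose, the basal keratins Krt5 (3515 to 5212 FPKM; 0.57 ± 0.10) and Krt14 (2582 to 5949 FPKM; 1.198 ± 0.14), in the same direction as the family (log2 ± SE; limma adjusted p = 0.00972 and 0.00373). The part of these differences in the Sprr2 result was not tested, and in bulk tissue fewer cells of a type cannot be told from less RNA per cell.

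**Figure D5:**
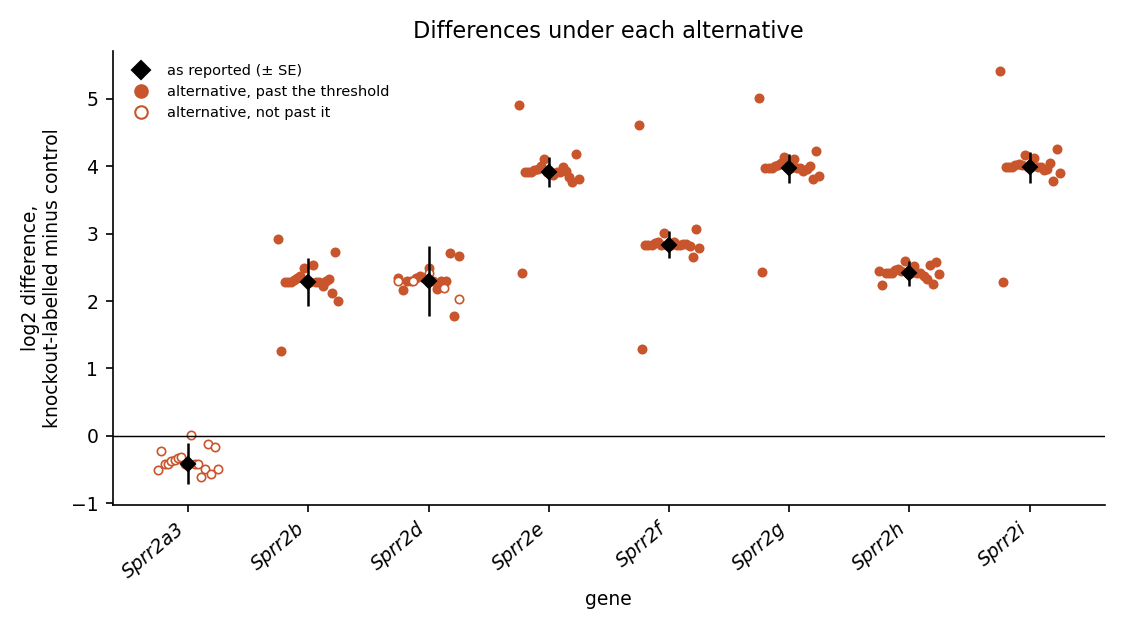
Log2 difference of each tested Sprr2 gene as reported (black diamonds with SE) and under each alternative of processing or left-out library (circles, filled where the adjusted p passed). All alternatives keep the 7 higher genes above 0, and open circles among them occur only for Sprr2d.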

How the data were processed

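RNA was taken from separated epidermis of 6 mouse libraries, 3 per group, and grouped by the titles and genotype labels. The authors deposited 1 table of FPKM per gene with a column for each library; CASAVA, Cufflinks and GRCm38 are named in the submitters' processing notes, without versions. Strandedness and the annotation were not stated in the sources used here.

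Of 49452 rows 49195 matched GENCODE M21, and where rows shared a symbol the one with the highest mean was kept (75 rows left out). FPKM are not counts, so log2(FPKM + 1) was fitted with limma 3.58.1 (R 4.3.3): intensity trend, no covariates, two-sided, Benjamini-Hochberg over the 13500 genes whose mean reached 1 FPKM in controls or in knockouts. Folds of means are on the FPKM scale. The script was first tested on simulated data. The table gives no fragment counts, so counting error is unknown, and low values are the least certain.

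The members and gene lists were chosen with earlier results of these data known. Named are all members, Rictor, 3 neighbours on each side, the 4 partners and 4 regulators with the smallest p, and the 5 protein-coding genes nearest in profile. Protein sequences were not used here. Transcript words came from GENCODE M21, promoters from RefSeq. Alternatives covered pseudocounts, filters, scalings, a length and GC adjustment, variance models, array weights, the threshold and each library left out.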

Additional observations from a re-analysis of the deposited data

How the results depend on the processing

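The 7 higher members kept their direction under all 20 alternatives, and 6 or 7 of them were called. Only the call of Sprr2d was lost, in 5 alternatives: without a filter, with robust empirical Bayes (limma adjusted p = 0.0672 and 0.0588) and without control 261, 263 or 266. The log2 ratio of summed FPKM ran from 2.38 to 2.77. Differences of low members moved with the pseudocount, that of Sprr2i from 2.28 to 5.41. Over all genes, array weights called 6272 (2335 higher, 3937 lower), 46.5% of those tested, with 6 partners and 7 regulators lower. Trimmed mean scaling and the length and GC adjustment called 1607 and 1740 higher. Of called genes 33.7% were higher as deposited. That share was 44.9% when libraries were scaled to their median, 49.8% by trimmed means, 47.9% with quantiles matched and 52.4% with length and GC adjusted. Scaling moved the median of all genes from -0.06 to at most 0.00. With 0.10 as threshold 11 regulators were higher, as were 11.7% of all tested genes. Leaving out 1 library gave 1462 (without 263) to 3784 (without control 264) called genes, 477 to 1514 higher and 985 to 2270 lower, 1 to 6 partners lower, and 3 to 7 regulators higher and 0 to 5 lower. Median unique words were 88.6% at 50 bases, 95.3% at 75 and 99.2% at 100. No paired analysis was possible because the labels name no litter or other pairing of the libraries, so a litter effect could not be modelled.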

Other observations

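Outside the Sprr2 genes, 7 genes had an upstream window with AP-1, octamer and TATA letters together, and 4 of them were tested. Plet1, a surface protein of progenitor and hair follicle cells, rose from a mean of 41.7 to 90.5 FPKM (1.10 ± 0.09), and Skint11, of a butyrophilin-like family, rose from 0.781 to 1.89 FPKM (0.68 ± 0.17), having passed through the knockout-labelled libraries alone. Plppr2 fell (-0.33 ± 0.09) and Elf1 did not pass (0.09 ± 0.07; log2 ± SE, n = 3 per group, limma adjusted p = 0.00139, 0.0291, 0.0480 and 0.385). Over the 566 tested genes with the AP-1 letters, Sprr2 genes apart, 9.72% rose, near the 7.91% of all tested genes, with a median of -0.10. The search was made after the promoters of the family had been read.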
